A study of Mus musculus with 12 samples.

Results

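The 38 genes described here encode enzymes and regulators of cholesterol synthesis and of fatty acid and triglyceride synthesis, and were picked by symbol from the 53796 genes of an RNA sequencing table of mouse liver. They were divided into a sterol arm of 21 genes and a fatty acid arm of 17 genes. Total RNA of 12 libraries was measured, 3 in each of 4 groups. Sham was liver of sham-operated mice of genotype WT, and WT was liver of mice of the same genotype without the sham label. RIPK1_D138N was liver of mice with the kinase-dead D138N allele of RIPK1, and TNFR12_KO was liver of mice labelled as knockouts of both TNF receptors. Strain, age, the length of ischemia and the interval before sampling are not given in the sources used here. WT, RIPK1_D138N and TNFR12_KO were read as the ischemia arm from the title of the series, and no sham liver of either mutant was analysed here. A baseline difference of a mutant and a different answer to ischemia therefore cannot be told apart. Nothing in the labels states that the 3 libraries of a group came from 3 mice, so p-values describe the spread between libraries, which may be technical. Libraries of Sham and WT are lettered a to c because the numbers of their columns could not be matched to 1 sample each.

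Liver makes cholesterol from acetyl-CoA through mevalonate, farnesyl diphosphate, squalene and lanosterol, and makes fatty acids from the same acetyl-CoA through malonyl-CoA. Transcription of both arms is driven by sterol regulatory element-binding proteins (SREBPs), of which SREBP2 (Srebf2) acts mainly on sterol genes and SREBP1c (Srebf1) mainly on lipogenic genes. INSIG proteins hold SREBP precursors in the endoplasmic reticulum when sterols are plentiful. Carbohydrate response element-binding protein (ChREBP, Mlxipl) drives lipogenic genes in response to glucose metabolites, and insulin raises SREBP1c activity in hepatocytes.

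All values are FPKM, fragments per kilobase of transcript scaled to the mapped fragments of a library, as the authors deposited them. Differences are on the log2(FPKM + 1) scale from limma, fitted to the 11728 genes that reached 1 FPKM in 3 libraries or more, and a gene was called at a Benjamini-Hochberg adjusted p under 0.05. Of the 38 genes 37 passed that filter. The exception was Pnpla3, a lipid droplet acylhydrolase, which is listed at 0 in all Sham libraries and reached 1.27 FPKM in RIPK1_D138N replicate 2 and 0.912 in TNFR12_KO replicate 2.

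The libraries differed in ways that bear on these genes. FPKM summed over all genes came to 288934 to 303514 in WT, 649373 to 750501 in Sham and 441296 to 518580 in the mutants. The median gene stood 0.36 log2 units lower in WT than in Sham. That median was -0.10 with median-of-ratios scaling and -0.05 with quantile normalization. The summed FPKM of 7 hepatocyte markers was 36240 to 45700 in Sham, 8132 to 11600 in WT, 26940 to 30910 in RIPK1_D138N and 22940 to 33120 in TNFR12_KO. Whether fewer hepatocytes or less RNA per hepatocyte lay behind a lower value cannot be told apart in bulk tissue. The 6 adipocyte markers summed to at most 1.17 FPKM in any library, and Lep and Retn were each listed at 0 in 11 of 12 libraries. RIPK1_D138N replicates 2 and 3 stood apart: Xist, the transcript of the inactive X chromosome, read 20.1 and 23.4 FPKM there and at most 0.0824 elsewhere, and the Y-linked gene Ddx3y read 0.0176 and 0 against at least 11.97 elsewhere. Counts of called genes are given also without these libraries, and so are the genes of the 2 arms whose calls against WT were lost. Tnfrsf1a and Tnfrsf1b, which encode the TNF receptors, stood at 18.5 ± 3.28 and 6.83 ± 2.70 FPKM in TNFR12_KO (mean ± SD, n = 3) against 35.1 ± 2.90 and 9.51 ± 1.20 in WT. In RIPK1_D138N they stood at 19.8 ± 1.09 and 5.52 ± 0.499, so values below WT were not particular to TNFR12_KO. A value per gene does not show whether part of a gene is missing.

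The promoters of 3 of the genes are shown because they stand for kinds of behaviour met below: an early enzyme of the mevalonate pathway that was not called against WT in either mutant (Hmgcs1), an SREBP target that feeds back on the pathway (Insig1) and the central enzyme of fatty acid synthesis, called in both mutants (Fasn). Each sequence is taken from the 250 bases before the RefSeq start of the gene on build GRCm38.p6, without bases inside the GENCODE M21 gene. It runs 5′ to 3′ on the strand of the gene, with matches to TCACNCCAC, CACGTG and CCAAT on either strand in capitals.
Hmgcs1, chr13:119690101-119690350, plus strand: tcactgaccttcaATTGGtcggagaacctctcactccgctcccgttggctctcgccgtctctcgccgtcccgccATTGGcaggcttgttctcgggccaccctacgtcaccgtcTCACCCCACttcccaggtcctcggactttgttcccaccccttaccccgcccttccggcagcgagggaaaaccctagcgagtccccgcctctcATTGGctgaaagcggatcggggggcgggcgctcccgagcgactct
Insig1, chr5:28071162-28071362, plus strand: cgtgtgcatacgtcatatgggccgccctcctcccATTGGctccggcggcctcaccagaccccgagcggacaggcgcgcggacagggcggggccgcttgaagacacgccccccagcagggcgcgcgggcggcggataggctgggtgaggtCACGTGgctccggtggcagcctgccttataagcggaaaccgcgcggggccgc
Fasn, chr11:120824548-120824797, minus strand: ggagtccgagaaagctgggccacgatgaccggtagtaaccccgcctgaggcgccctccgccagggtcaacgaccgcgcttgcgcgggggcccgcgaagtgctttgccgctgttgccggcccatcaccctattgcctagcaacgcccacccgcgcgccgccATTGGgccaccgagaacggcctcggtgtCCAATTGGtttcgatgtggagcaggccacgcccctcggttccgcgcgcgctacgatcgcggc
In the promoter of Hmgcs1 the capitals mark 1 sterol regulatory element and 3 CCAAT boxes, in that of Insig1 an E-box and a CCAAT box, and in that of Fasn 3 CCAAT boxes, of which a forward and a reverse match overlap.

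RefSeq promoter windows, from 250 bases before to 50 bases after a start, were at hand for 31 of the 38 genes, and a gene was counted when any of its windows held the letters on either strand. The CCAAT box, bound by NF-Y, was found in 27 of 31 (87.1%), against 41.1% of all 27025 genes with a window. The GC box GGGCGG, bound by Sp1, was found in 24 of 31 (77.4%), against 38.2% of all genes. It was present in 16 of 17 genes of the sterol arm (94.1%) and in 8 of 14 of the fatty acid arm (57.1%). The E-box CACGTG was found in 6 of 31 (19.4%, against 8.09% of all genes). The classical sterol regulatory element TCACNCCAC was found in 2 of 31, Hmgcs1 and Mlxipl, against 1.44% of all genes. These are matches of letters in a short window and no measure of binding. The 27025 genes were not limited to those that passed the filter at 1 FPKM, as nearly all of the 38 genes did. A like background was therefore not used.

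Of the 5 regulators, 2 rose from Sham to WT and were not called in the mutants against WT, and 1 fell in both mutants. Srebf1 (ENSMUSG00000020538, chromosome 11, 60199089 to 60222581, minus strand) read 5.47, 5.94 and 8.59 FPKM in the Sham libraries, 51.9, 72.4 and 33.9 in those of WT, 26.9, 89.9 and 57.1 in those of RIPK1_D138N and 45.5, 106 and 124 in those of TNFR12_KO. Every Sham library lay below every other library, and the WT and mutant libraries overlapped. It rose in WT against Sham (log2 difference 2.77, SE 0.441, adjusted p = 0.00016) and was not called in either mutant against WT (0.04, adjusted p = 0.948, and 0.73, adjusted p = 0.191). Mlxipl, which encodes ChREBP, read 10.5, 9.0 and 13.1 FPKM in the Sham libraries, 23.6, 34.5 and 21.9 in those of WT, 23.4, 32.04 and 23.5 in those of RIPK1_D138N and 36.7, 25.98 and 40.4 in those of TNFR12_KO. It rose in WT against Sham (log2 difference 1.21, SE 0.226, adjusted p = 0.000542), was not called in either mutant against WT, and again every Sham library lay below all others. Both rises were also called with median-of-ratios scaling (3.08 and 1.53) and with quantile normalization (3.64 and 1.95).

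Srebf2 (ENSMUSG00000022463, chromosome 15, 82147181 to 82205379, plus strand) read 6.29, 9.94 and 10.4 FPKM in the Sham libraries, 11.3, 7.76 and 12.7 in those of WT, 4.01, 7.24 and 6.16 in those of RIPK1_D138N and 5.20, 8.20 and 9.02 in those of TNFR12_KO. It fell in RIPK1_D138N against WT (log2 difference -0.78, SE 0.263, adjusted p = 0.0253) and was not called in TNFR12_KO (-0.46, adjusted p = 0.171). All RIPK1_D138N libraries lay below all WT libraries, with replicate 1 lowest. The call was lost without replicate 1 (-0.57, adjusted p = 0.1), without WT library a (-0.72, adjusted p = 0.0781) or c (-0.64, adjusted p = 0.099), and with no filter on low values (adjusted p = 0.0663).

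The 2 INSIG genes were called in opposite directions in RIPK1_D138N, Insig2 on every scaling and Insig1 not. Insig1, an SREBP target whose protein retains SREBP precursors, read 36.98, 23.7 and 39.3 FPKM in the Sham libraries, 54.4, 45.9 and 45.5 in those of WT, 58.4, 131 and 113 in those of RIPK1_D138N and 55.3, 92.98 and 83.02 in those of TNFR12_KO. It rose in RIPK1_D138N against WT (log2 difference 0.96, SE 0.297, adjusted p = 0.0161) and did not pass in TNFR12_KO (0.63, adjusted p = 0.101). The rise was not called after quantile normalization (0.09, adjusted p = 0.807), without replicates 2 and 3 (0.27, adjusted p = 0.563), or without replicate 2 (adjusted p = 0.0701) or replicate 3 (adjusted p = 0.0623) alone. Insig2, whose liver transcript is known to be lowered by insulin, read 261, 193 and 157 FPKM in the Sham libraries, 101, 86.2 and 101 in those of WT, 50.02, 21.1 and 21.8 in those of RIPK1_D138N and 28.3, 32.6 and 35.8 in those of TNFR12_KO. The groups followed the order Sham, WT and the mutants from high to low, with no library of one step overlapping the next. Insig2 fell in RIPK1_D138N against WT (log2 difference -1.71, SE 0.289, adjusted p = 0.000316) and in TNFR12_KO against WT (log2 difference -1.55, SE 0.289, adjusted p = 0.000773). Its fall in WT against Sham (log2 difference -1.05, SE 0.289, adjusted p = 0.00734) depended on scaling, and was -0.71 (adjusted p = 0.0742) with median-of-ratios scaling and 0.22 after quantile normalization.

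**Figure D1:**
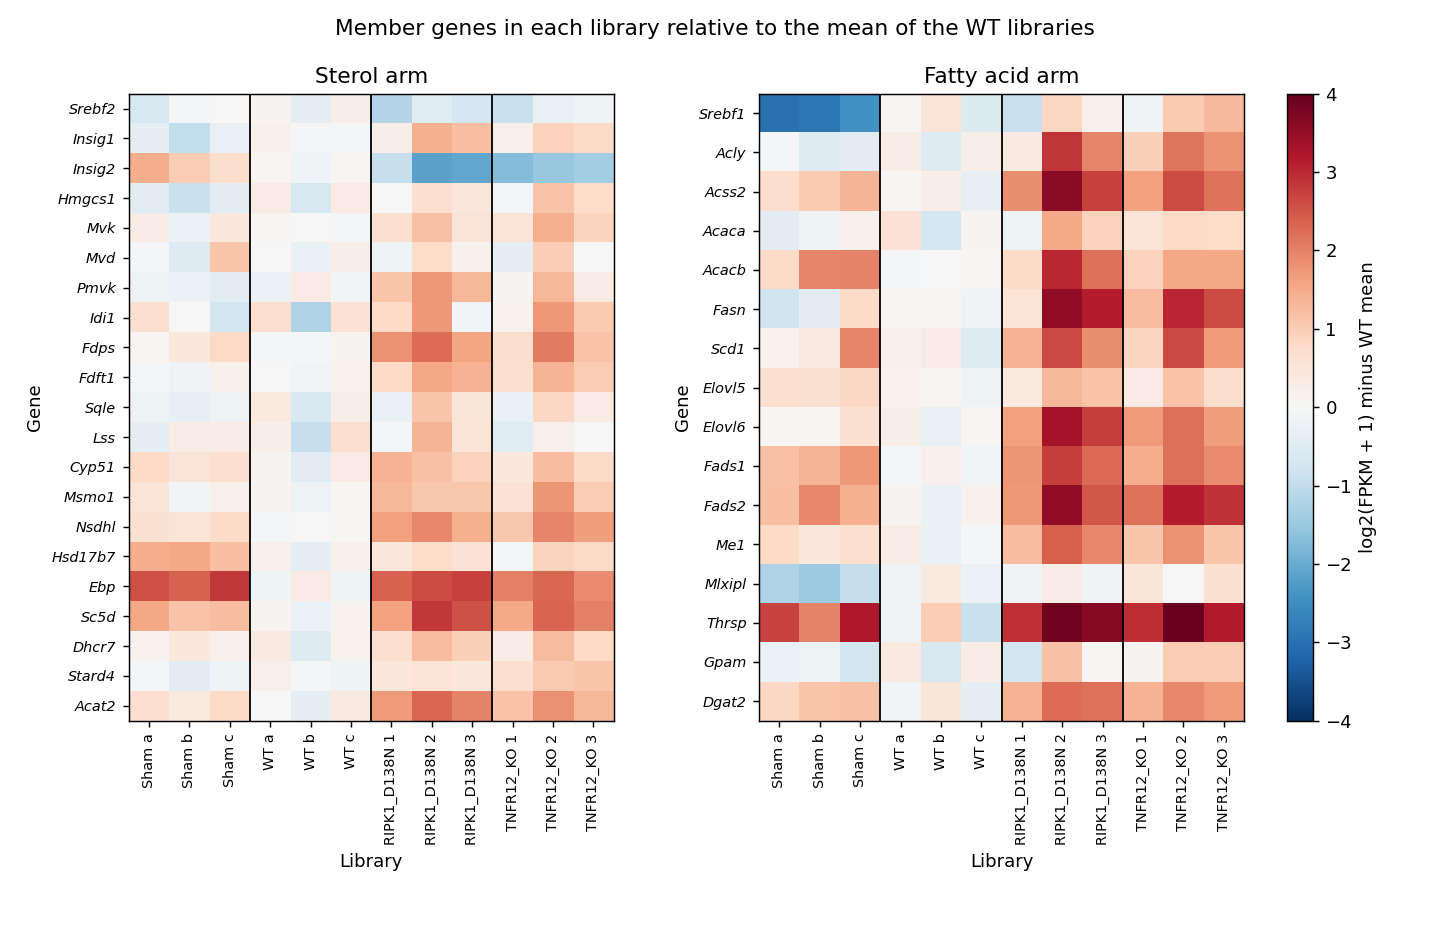
Level of each gene in each library, as log2(FPKM + 1) minus the mean of the 3 WT libraries (colour), for the 21 genes of the sterol arm and the 16 tested genes of the fatty acid arm, with genes as rows and libraries as columns. Most rows turn red from WT to the mutants, Insig2 turns blue, and RIPK1_D138N replicate 1 is paler than replicates 2 and 3 in the fatty acid arm.

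In wild-type liver the 2 arms showed few differences that stood on every scaling. Of the 21 genes of the sterol arm 7 fell and 0 rose in WT against Sham (limma, adjusted p under 0.05), where 41.9% of all tested genes fell and 16.4% rose (58.2% either way). Their median difference was -0.18, against -0.36 for all genes. Of the 16 tested genes of the fatty acid arm 7 fell and 2, Srebf1 and Mlxipl, rose, with a median of -0.67. The split of the sterol arm depended on scaling: median-of-ratios scaling gave 3 higher and 3 lower, and quantile normalization 7 higher and 2 lower. In the fatty acid arm the former gave 2 higher and 5 lower and the latter 2 higher and 2 lower. The falls called on all 3 scalings were those of Ebp and Hsd17b7 in the sterol arm and of Thrsp and Acacb in the fatty acid arm. The hepatocyte markers fell in 7 of 7 cases in the same comparison, by a median of 2.48 log2 units (3 of 7 after quantile normalization), and their part in the falls was not tested.

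Ebp, the sterol isomerase that moves a double bond late in cholesterol synthesis (ENSMUSG00000031168, chromosome X, 8185329 to 8193512, minus strand), read 148, 125 and 174 FPKM in the Sham libraries, 21.02, 30.4 and 21.1 in those of WT, 125, 151 and 163 in those of RIPK1_D138N and 98.9, 120.0 and 90.8 in those of TNFR12_KO. The Sham libraries were all above 125 FPKM and the WT libraries all below 31 FPKM. Ebp fell in WT against Sham (log2 difference -2.58, SE 0.198, adjusted p = 5.35e-07), and by 1.64 after quantile normalization. Hsd17b7, the 3-ketosteroid reductase of the C4-demethylation complex, read 14.8, 15.8 and 12.3 FPKM in the Sham libraries, 5.57, 3.39 and 5.498 in those of WT, 6.74, 8.60 and 7.58 in those of RIPK1_D138N and 4.40, 9.56 and 8.81 in those of TNFR12_KO. It fell in WT (log2 difference -1.41, SE 0.249, adjusted p = 0.000352), and no WT library reached the lowest Sham library. Thrsp, the Spot 14 protein that promotes lipogenesis (ENSMUSG00000035686, chromosome 7, 97412938 to 97417730, minus strand), read 482, 298 and 686 FPKM in the Sham libraries, 67.4, 149 and 39.6 in those of WT, 562, 1085 and 935 in those of RIPK1_D138N and 578, 1161 and 674 in those of TNFR12_KO, so that WT again lay wholly below Sham (log2 difference -2.63, SE 0.455, adjusted p = 0.000304). Acacb, the mitochondrial acetyl-CoA carboxylase whose malonyl-CoA restrains fatty acid oxidation, read 2.27, 6.50 and 6.74 FPKM in the Sham libraries, 0.834, 0.954 and 1.05 in those of WT, 2.29, 14.6 and 7.995 in those of RIPK1_D138N and 2.65, 4.72 and 4.66 in those of TNFR12_KO, with a fall in WT (log2 difference -1.56, SE 0.467, adjusted p = 0.0116).

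Sc5d, Nsdhl, Cyp51 and Acat2 of the sterol arm also fell in WT (from -1.30 for Sc5d to -0.60 for Acat2), but none of them was called after quantile normalization. Fads1, Fads2, Dgat2, Acss2 and Elovl5 of the fatty acid arm fell by between 0.70 and 1.53 log2 units, and none of these was called after quantile normalization. Of the genes that fell, Cyp51, Insig2, Dgat2 and Elovl5 then had positive differences (0.08, 0.22, 0.14 and 0.29). Leaving out Sham library c reduced the 7 calls of the sterol arm to 4 (Cyp51, Nsdhl and Acat2 were lost).

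Both mutants stood above WT in most genes of the sterol arm. In RIPK1_D138N 13 of 21 genes rose and 2, Srebf2 and Insig2, fell (limma, adjusted p under 0.05), where 29.8% of all tested genes rose and 21.9% fell (51.8% either way). The median of the arm was 0.96, against 0.11 for all genes. In TNFR12_KO 11 of 21 rose and 1, Insig2, fell, where 29.6% of all tested genes rose and 17.5% fell (47.1% either way), and the median was 0.80 against 0.14. The 2 comparisons share the WT libraries. On all 3 scalings 9 of the 13 rises were called in RIPK1_D138N and 7 of the 11 in TNFR12_KO.

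Of the 5 genes here for enzymes up to mevalonate diphosphate decarboxylase, 3 rose in RIPK1_D138N and 2 in TNFR12_KO. Acat2, the cytosolic thiolase that joins acetyl-CoA units, read 10.8, 8.75 and 11.6 FPKM in the Sham libraries, 6.51, 4.70 and 8.61 in those of WT, 23.4, 35.9 and 28.7 in those of RIPK1_D138N and 15.2, 25.1 and 17.8 in those of TNFR12_KO. Both mutants were higher, RIPK1_D138N against WT (log2 difference 2.01, SE 0.237, adjusted p = 1.98e-05) and TNFR12_KO against WT (log2 difference 1.43, SE 0.237, adjusted p = 0.000325), and every mutant library lay above every WT library. Hmgcs1, HMG-CoA synthase (ENSMUSG00000093930, chromosome 13, 119690379 to 119708260, plus strand), read 29.5, 21.1 and 28.9 FPKM in the Sham libraries, 49.8, 25.2 and 49.6 in those of WT, 40.5, 64.1 and 54.5 in those of RIPK1_D138N and 37.6, 89.5 and 67.1 in those of TNFR12_KO. The WT libraries spanned the lower mutant libraries, and Hmgcs1 was not called in RIPK1_D138N (0.38, adjusted p = 0.342) or in TNFR12_KO (0.61, adjusted p = 0.145). Mvk and Pmvk, the kinases of mevalonate and phosphomevalonate, averaged 4.09 ± 0.299 and 18.7 ± 4.01 FPKM in WT (mean ± SD, n = 3). Mvk rose in RIPK1_D138N (0.77) and in TNFR12_KO (0.96). The former call was lost with no filter on low values (limma, adjusted p = 0.0558). It was also lost without WT library c (0.73, adjusted p = 0.0633) or RIPK1_D138N replicate 2 (0.57, adjusted p = 0.0909). Pmvk rose in RIPK1_D138N (1.39) but was not called in TNFR12_KO (0.58, adjusted p = 0.115). Mvd, the decarboxylase that follows, averaged 4.87 ± 0.998 (WT), 6.14 ± 2.32 (RIPK1_D138N) and 6.25 ± 3.71 (TNFR12_KO) FPKM and was not called. Its value is less certain, because the locus given for it in the table spans 4435365 bases that hold 210 annotated genes.

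Of the genes between isopentenyl diphosphate and lanosterol, 2 of 5 rose in each mutant. Idi1, the isopentenyl diphosphate isomerase, read 12.4, 7.43 and 4.16 FPKM in the Sham libraries, 12.1, 2.65 and 11.8 in those of WT, 13.7, 27.4 and 6.94 in those of RIPK1_D138N and 8.42, 27.5 and 16.6 in those of TNFR12_KO, and its libraries overlapped across all groups. Fdps, which makes farnesyl diphosphate (ENSMUSG00000059743, chromosome 3, 89093588 to 89101959, minus strand), read 48.5, 61.9 and 80.8 FPKM in the Sham libraries, 43.3, 44.4 and 49.6 in those of WT, 162, 218 and 139.5 in those of RIPK1_D138N and 74.3, 197 and 101 in those of TNFR12_KO. All mutant libraries lay above all WT libraries, and Fdps rose in RIPK1_D138N (log2 difference 1.88, SE 0.308, adjusted p = 0.000256) and in TNFR12_KO (log2 difference 1.30, SE 0.308, adjusted p = 0.00384). The call in TNFR12_KO was lost after quantile normalization (0.47, limma adjusted p = 0.192). Fdft1, squalene synthase, rose in both mutants (1.25 and 1.01), from 14.2 ± 1.47 FPKM in WT to 35.9 ± 9.25 and 30.3 ± 7.72. Sqle, squalene epoxidase and a rate-limiting step, read 11.9, 10.9 and 11.9 FPKM in the Sham libraries, 18.5, 8.71 and 16.5 in those of WT, 11.5, 31.3 and 20.03 in those of RIPK1_D138N and 11.5, 25.2 and 17.6 in those of TNFR12_KO. Lss, which closes the sterol ring to give lanosterol, averaged 4.89 ± 2.88 (WT), 7.87 ± 4.43 (RIPK1_D138N) and 4.09 ± 1.18 (TNFR12_KO) FPKM. Neither Sqle nor Lss was called in any of the 6 comparisons.

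Of the 7 genes that turn lanosterol into cholesterol, 6 rose in both mutants, of which Ebp, Sc5d and Nsdhl were called in both on all 3 scalings. Ebp rose most in the sterol arm, by 2.56 in RIPK1_D138N (SE 0.198, limma adjusted p = 1.21e-06) and 2.06 in TNFR12_KO (adjusted p = 5.1e-06), and no mutant library fell below 90 FPKM, against at most 30.4 in WT. Sc5d, lathosterol oxidase (ENSMUSG00000032018, chromosome 9, 42251595 to 42264256, minus strand), read 80.8, 60.3 and 64.1 FPKM in the Sham libraries, 29.1, 22.6 and 29.7 in those of WT, 84.7, 197 and 162 in those of RIPK1_D138N and 78.5, 141 and 113 in those of TNFR12_KO. Every mutant library lay above every WT library, and Sc5d rose in RIPK1_D138N (log2 difference 2.33, SE 0.294, adjusted p = 3.37e-05) and in TNFR12_KO (log2 difference 1.96, SE 0.294, adjusted p = 0.000146). Nsdhl, the decarboxylating dehydrogenase of the C4-demethylation complex, read 11.9, 11.2 and 13.5 FPKM in the Sham libraries, 7.01, 7.62 and 7.75 in those of WT, 25.3, 31.3 and 21.9 in those of RIPK1_D138N and 16.8, 31.4 and 25.98 in those of TNFR12_KO. Its level was higher in RIPK1_D138N (log2 difference 1.67, SE 0.211, adjusted p = 3.41e-05) and in TNFR12_KO (log2 difference 1.56, SE 0.211, adjusted p = 6.54e-05). Msmo1, the methyl sterol oxidase of that complex, rose to 94.1 ± 10.8 and 97.5 ± 42.1 FPKM from 41.6 ± 4.93 in WT. Cyp51, the lanosterol demethylase, rose by 1.16 and 0.80, and Dhcr7, the last reductase before cholesterol, by 0.95 and 0.79. In TNFR12_KO the call of Cyp51 was lost without WT library b (limma, adjusted p = 0.0593) or replicate 2 (adjusted p = 0.0694). That of Dhcr7 was lost without WT library b, replicate 2 or replicate 3 (adjusted p = 0.0643 to 0.132). It was also lost with no filter on low values (adjusted p = 0.0763). The lowest TNFR12_KO library of Dhcr7 (17.05 FPKM) lay below the highest WT library (17.82 FPKM). After quantile normalization Msmo1 (0.33 in RIPK1_D138N and 0.35 in TNFR12_KO) and Dhcr7 (0.56 and 0.37) were not called in either mutant, and Cyp51 not in TNFR12_KO (0.31). The gene called in neither mutant was Hsd17b7, at 0.59 (adjusted p = 0.0634) and 0.53 (adjusted p = 0.0996). Stard4, a cytosolic carrier of cholesterol, rose in TNFR12_KO (0.95) and in RIPK1_D138N (0.47, adjusted p = 0.0342). The latter call was lost with either rescaling (0.39 and 0.29) and without any 1 of WT libraries b and c and RIPK1_D138N replicates 1, 2 and 3 (0.38 to 0.49).

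**Figure D2:**
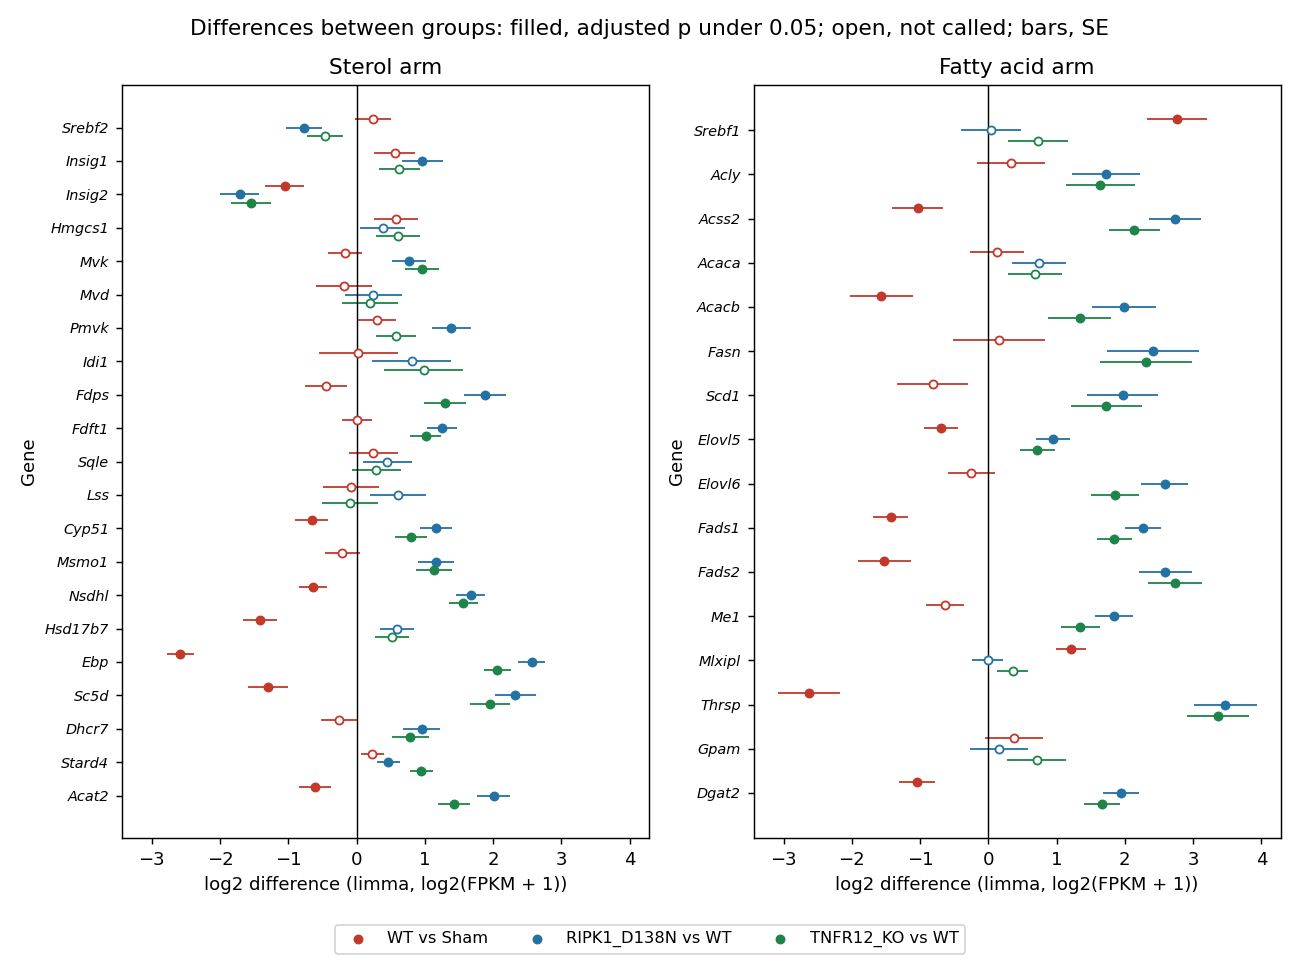
Difference in log2(FPKM + 1) from limma (points, with bars of 1 SE) for WT against Sham, RIPK1_D138N against WT and TNFR12_KO against WT, for each gene of the sterol arm (left) and the fatty acid arm (right); filled points passed an adjusted p of 0.05. Ebp and Thrsp show the largest fall from Sham to WT in their arms and the largest rise from WT to the mutants, while Srebf1 and Mlxipl rise from Sham to WT and are not filled from WT to the mutants.

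The fatty acid arm stood further above WT. In each mutant 12 of its 16 tested genes rose and 0 fell, with a median of 1.96 in RIPK1_D138N and 1.66 in TNFR12_KO (limma, adjusted p under 0.05; shares of all genes as above). The genes not called were Srebf1, Mlxipl, Acaca and Gpam in both comparisons. On all 3 scalings 10 of the 12 rises were called in RIPK1_D138N and 9 in TNFR12_KO. In TNFR12_KO 5 of the 12 calls (Acly, Acacb, Fasn, Scd1 and Elovl5) were lost when replicate 2 was left out. The hepatocyte markers rose in 5 of 7 cases and fell in 1 in each mutant against WT (medians 2.21 and 1.95), and their part in the rises of either arm was not tested.

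Cytosolic acetyl-CoA feeds both arms. Acly, ATP citrate lyase, read 12.5, 8.84 and 9.52 FPKM in the Sham libraries, 16.2, 8.80 and 15.5 in those of WT, 17.02, 102 and 53.3 in those of RIPK1_D138N and 26.4, 61.7 and 48.2 in those of TNFR12_KO. Acly rose in RIPK1_D138N (log2 difference 1.72, SE 0.502, adjusted p = 0.0118) and in TNFR12_KO (log2 difference 1.64, SE 0.502, adjusted p = 0.0167), although RIPK1_D138N replicate 1 exceeded the highest WT library by less than 1 FPKM. Acss2, which makes acetyl-CoA from acetate (ENSMUSG00000027605, chromosome 2, 155517948 to 155585724, plus strand), read 10.4, 13.2 and 16.8 FPKM in the Sham libraries, 6.20, 7.401 and 4.49 in those of WT, 24.1, 84.01 and 44.7 in those of RIPK1_D138N and 20.4, 41.3 and 30.4 in those of TNFR12_KO. It rose in RIPK1_D138N (log2 difference 2.73, SE 0.377, adjusted p = 6.76e-05) and in TNFR12_KO (log2 difference 2.14, SE 0.377, adjusted p = 0.000502), and the lowest mutant library lay above the highest WT library. Me1, cytosolic malic enzyme and a source of NADPH, rose to 73.6 ± 28.6 and 50.7 ± 15.3 FPKM from 19.1 ± 4.15 in WT.

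The carboxylases and the synthase differed in how tightly their libraries agreed. Fasn, fatty acid synthase (ENSMUSG00000025153, chromosome 11, 120805846 to 120824547, minus strand), read 11.5, 15.2 and 35.6 FPKM in the Sham libraries, 21.8, 21.9 and 18.8 in those of WT, 31.04, 252 and 190.5 in those of RIPK1_D138N and 50.1, 181 and 133 in those of TNFR12_KO. The WT libraries lay within 4 FPKM of each other, while the mutant libraries ran from 31.0 to 252.0. Fasn rose in RIPK1_D138N (log2 difference 2.41, SE 0.675, adjusted p = 0.00954) and in TNFR12_KO (log2 difference 2.31, SE 0.675, adjusted p = 0.0133), but without TNFR12_KO replicate 2 the latter did not pass (1.93, adjusted p = 0.0594). Acacb rose by 1.99 and 1.34. The call in TNFR12_KO was lost without any 1 WT library, replicate 2 or replicate 3 (limma, adjusted p = 0.0646 to 0.0915). It was also lost with no filter on low values (adjusted p = 0.103) and on log2(FPKM + 5) (0.59, adjusted p = 0.104). Acaca, the cytosolic carboxylase that commits acetyl-CoA to fatty acids, read 1.43, 1.94 and 2.83 FPKM in the Sham libraries, 3.96, 1.02 and 2.58 in those of WT, 1.85, 8.40 and 5.25 in those of RIPK1_D138N and 3.73, 4.70 and 4.47 in those of TNFR12_KO and was not called in any comparison.

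The 5 genes that elongate and desaturate fatty acids rose in both mutants, of which Elovl6, Fads1 and Fads2 were called on all 3 scalings. Elovl6, which elongates palmitate, read 3.41, 3.44 and 5.33 FPKM in the Sham libraries, 3.95, 2.41 and 3.35 in those of WT, 12.02, 40.97 and 27.8 in those of RIPK1_D138N and 12.7, 18.3 and 12.2 in those of TNFR12_KO. Every mutant library lay at least 8 FPKM above the highest WT library (log2 difference 2.58, SE 0.346, adjusted p = 5.4e-05 in RIPK1_D138N, and log2 difference 1.86, SE 0.346, adjusted p = 0.000751 in TNFR12_KO). Fads2, the delta-6 desaturase of polyunsaturated fatty acids, read 24.8, 41.3 and 29.03 FPKM in the Sham libraries, 11.04, 8.20 and 11.4 in those of WT, 35.7, 130.2 and 61.3 in those of RIPK1_D138N and 49.2, 97.6 and 80.8 in those of TNFR12_KO. It rose in RIPK1_D138N (log2 difference 2.59, SE 0.389, adjusted p = 0.00013) and in TNFR12_KO (log2 difference 2.73, SE 0.389, adjusted p = 9.71e-05). Fads1, the delta-5 desaturase, read 49.7, 56.3 and 73.4 FPKM in the Sham libraries, 20.3, 24.1 and 19.6 in those of WT, 75.1, 149 and 107 in those of RIPK1_D138N and 59.4, 101 and 81.8 in those of TNFR12_KO. Fads1 rose in RIPK1_D138N (log2 difference 2.27, SE 0.258, adjusted p = 1.51e-05) and in TNFR12_KO (log2 difference 1.84, SE 0.258, adjusted p = 8.61e-05), and for both desaturases no mutant library overlapped WT. Scd1, the delta-9 desaturase, read 167, 195 and 593 FPKM in the Sham libraries, 174, 191 and 106 in those of WT, 403, 948 and 559 in those of RIPK1_D138N and 274, 959 and 495 in those of TNFR12_KO and rose in both mutants (1.97 and 1.73), but was not called in either after quantile normalization (1.07, adjusted p = 0.0954, and 0.95, adjusted p = 0.138). Elovl5, which elongates polyunsaturated fatty acids, rose by 0.95 and 0.72, and after quantile normalization its differences were 0.18 and -0.02, neither of them called.

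Of the remaining tested genes of this arm, Thrsp and Dgat2 rose and Gpam was not called. Thrsp rose in RIPK1_D138N (log2 difference 3.47, SE 0.455, adjusted p = 4.53e-05) and in TNFR12_KO (log2 difference 3.36, SE 0.455, adjusted p = 6.64e-05), which were the largest differences from WT of either arm. The lowest mutant library read 561.6 FPKM and the highest WT library 149.2. Dgat2, which adds the last acyl chain to triglycerides, read 119, 144 and 152 FPKM in the Sham libraries, 61.1, 92.5 and 51.5 in those of WT, 177, 318 and 304 in those of RIPK1_D138N and 176, 254 and 217 in those of TNFR12_KO and rose in both mutants (1.94 and 1.67). Gpam, the mitochondrial acyltransferase of the first step of triglyceride synthesis, averaged 4.18 ± 1.76 (WT), 5.38 ± 4.20 (RIPK1_D138N) and 7.39 ± 2.65 (TNFR12_KO) FPKM.

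Set side by side, the arms shared the direction in the mutants against WT and differed in size. The median of the sterol arm minus that of the fatty acid arm was -1.0 in RIPK1_D138N against WT and -0.85 in TNFR12_KO against WT, and 0.48 in WT against Sham, as descriptions without a test. Without the 5 regulators the 3 values were -0.92, -0.74 and 0.56. Within a library, the mean log2(FPKM + 1) of the fatty acid arm minus that of the sterol arm was -0.08, 0.22 and 0.39 in Sham and 0.11, 0.43 and -0.20 in WT. It was 0.30, 1.32 and 1.11 in RIPK1_D138N replicates 1, 2 and 3, and 0.92, 0.88 and 1.01 in TNFR12_KO. RIPK1_D138N replicate 1 thus lay within the range of the Sham and WT libraries, and the other 5 mutant libraries lay above it.

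**Figure D3:**
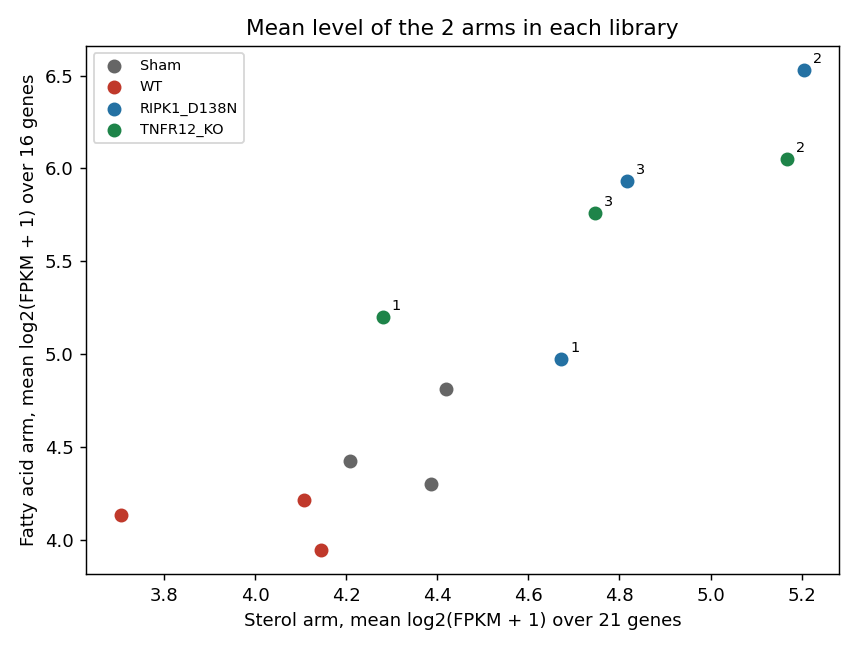
Mean log2(FPKM + 1) over the 16 tested genes of the fatty acid arm (vertical axis) against that over the 21 genes of the sterol arm (horizontal axis), with 1 point for each library coloured by group and mutant libraries labelled by replicate. The WT libraries sit lowest on the vertical axis, between 3.95 and 4.21, and the RIPK1_D138N libraries spread from 4.97 to 6.53.

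RIPK1_D138N replicate 1 stood apart from replicates 2 and 3, and more so in the fatty acid arm. It was the lowest library of its group in 16 of 16 tested genes of the fatty acid arm and in 13 of 21 of the sterol arm, against 46.2% of all tested genes. The median of replicate 1 minus the mean of replicates 2 and 3 was -1.31 log2 units in the fatty acid arm, -0.43 in the sterol arm and -0.06 over all genes. Fasn read 31.0 FPKM in replicate 1 against 252.0 and 190.5, Acly 17.02 against 102.0 and 53.3, and Acacb 2.29 against 14.6 and 7.995. In 3 sterol genes replicate 1 was the highest. They were Insig2, with 50.02 against 21.1 and 21.8, and by less Cyp51 (44.7 against 38.8 and 32.3) and Msmo1 (106.6 against 87.7 and 88.1). A sterol gene that differed little was Stard4 (11.7 against 12.8 and 11.5).

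The same library was nevertheless above all WT libraries in 12 of 16 genes of the fatty acid arm and 15 of 21 of the sterol arm, against 45% of all tested genes. Its median difference from the WT mean was 0.99 in the fatty acid arm and 0.66 in the sterol arm, against 2.69 and 1.26 in replicate 2 and 2.06 and 0.92 in replicate 3. It lay below all TNFR12_KO libraries in 10 of 16 genes of the fatty acid arm and in 2 of 21 of the sterol arm, against 39.1% of all tested genes. Replicate 1 is also the library of its group with Xist near 0 (0.021 FPKM), so that sex and replicate cannot be told apart within RIPK1_D138N. The summed endothelial markers read 14.1 FPKM in replicate 1 against 82.5 and 52.7, the neutrophil markers 137.2 against 178.9 and 4.14, and the hepatocyte markers 26940 against 30910 and 30120. Their part in the difference was not tested.

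Replicate 1 was also low in TNFR12_KO, where Xist read at most 0.0824 FPKM in each library. It was the lowest of its group in 14 of 16 genes of the fatty acid arm and 20 of 21 of the sterol arm, against 42.8% of all tested genes. Its median distance to replicates 2 and 3 was -0.63 in the fatty acid arm and -0.68 in the sterol arm. The endothelial markers read 41.9 FPKM in that library against 8.94 and 27.7.

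With replicate 1 as the single library of RIPK1_D138N, its spread assumed to be like that of the other groups, 7 of 16 genes of the fatty acid arm were called higher against WT in place of 12. Those called were Acss2, Elovl6, Fads1, Fads2, Me1, Thrsp and Dgat2. Of the others, Fasn stood at 0.56 in place of 2.41, Acly at 0.36 in place of 1.72, Acacb at 0.76 in place of 1.99, Elovl5 at 0.38 in place of 0.95 and Scd1 at 1.40 in place of 1.97. In the sterol arm 9 of the 13 rises and both falls were called. Insig1 stood at 0.27 in place of 0.96 and Insig2, still called, at -0.92 in place of -1.71, while Stard4 (0.43 in place of 0.47), Mvk (0.64 in place of 0.77) and Dhcr7 (0.66 in place of 0.95) lost their calls with smaller shifts. The sterol arm minus the fatty acid arm then came to -0.33 in place of -1.0.

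**Figure D4:**
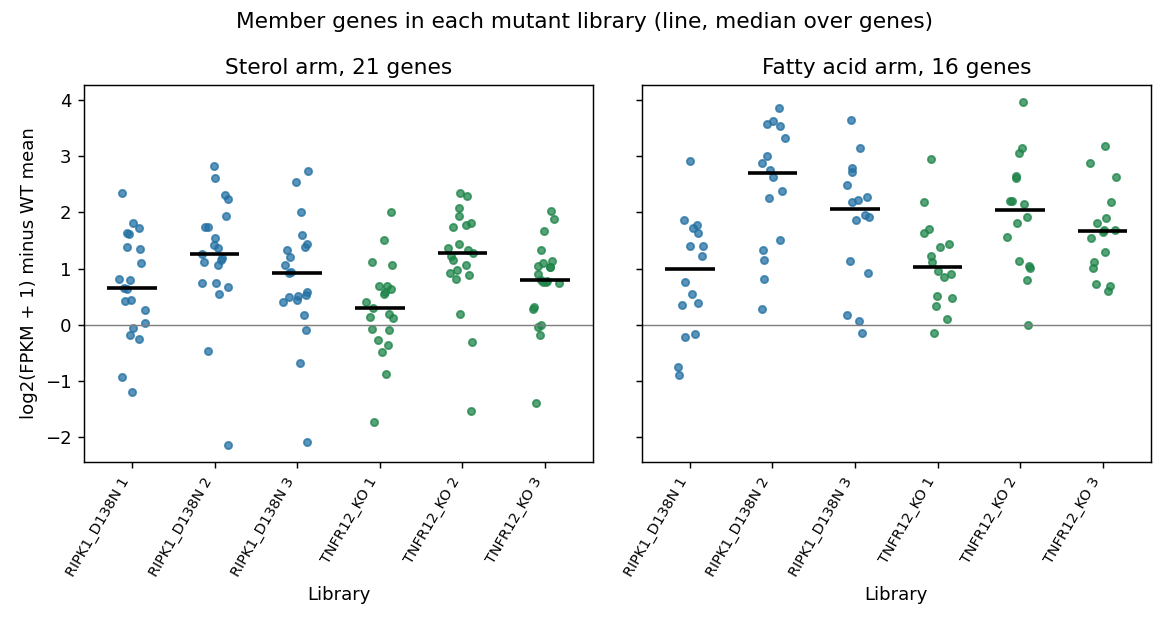
Each point is a gene of the sterol arm (left) or the fatty acid arm (right) in 1 mutant library, as log2(FPKM + 1) minus the mean of the WT libraries, and the black line is the median over genes. The medians of the fatty acid arm run from 0.99 in RIPK1_D138N replicate 1 to 2.69 in RIPK1_D138N replicate 2.

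Between the mutants none of the 37 tested genes was called (limma), where 0.929% of all tested genes were called (0.35% higher and 0.58% lower in RIPK1_D138N). At an unadjusted p under 0.05 there were 4, Pmvk, Acat2, Ebp and Stard4, against 12.3% of all genes. Pmvk had the largest difference (log2 difference 0.81, SE 0.287, adjusted p = 0.242), with means of 50.7 ± 11.8 (RIPK1_D138N) and 30.3 ± 15.5 (TNFR12_KO) FPKM, and its libraries overlapped between the mutants. The medians were 0.16 in the sterol arm and 0.17 in the fatty acid arm, and the 2 arms differed by -0.01. The SE of a single gene ran from 0.169 (Stard4) to 0.675 (Fasn). Srebf1 stood at -0.69 (SE 0.441, adjusted p = 0.6) and Insig1 at 0.34.

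Against Sham, the mutants were above the level of the operated wild-type controls in many genes of both arms. In RIPK1_D138N 10 genes of the sterol arm rose and 2, Insig2 and Hsd17b7, fell, and 9 of 16 genes of the fatty acid arm rose and 0 fell, where 7.51% of all tested genes rose and 22.7% fell (30.2% either way). In TNFR12_KO 9 genes of the sterol arm rose and 2, again Insig2 and Hsd17b7, fell, and 7 rose and 0 fell in the fatty acid arm, where 7.46% of all tested genes rose and 18.1% fell (25.6% either way). These comparisons share the Sham libraries. Fasn stood at 2.57 and 2.47, Srebf1 at 2.81 and 3.50, and Insig2 at -2.76 and -2.60, all called. The calls of Fasn were lost with no filter on low values (limma, adjusted p = 0.0564 and 0.0766). In RIPK1_D138N Fasn also lost its call without replicate 2 (adjusted p = 0.0552) or replicate 3 (adjusted p = 0.0565). Its replicate 1 (31.04 FPKM) lay below the highest Sham library (35.63 FPKM). In TNFR12_KO Fasn also lost its call without Sham library a or b, replicate 2 or replicate 3 (adjusted p = 0.0527 to 0.0667). Hmgcs1, not called against WT, was called higher than in Sham in both (0.97, adjusted p = 0.0407, and 1.19, adjusted p = 0.0192). In RIPK1_D138N that call was lost without any 1 Sham library, replicate 2 or replicate 3 (limma, adjusted p = 0.0568 to 0.126). With no filter on low values it was lost in both mutants (adjusted p = 0.111 and 0.0652). Ebp, at -0.02 and -0.52, and Thrsp, at 0.84 and 0.73, were not called against Sham.

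With replicate 1 as the single RIPK1_D138N library, 1 of 21 genes of the sterol arm was called against Sham in place of 12, Insig2, and 2 of 16 of the fatty acid arm in place of 9, Srebf1 and Elovl6. A single library also widens the error, and several lost calls had differences about as large as before: Msmo1 stood at 1.14 in place of 0.95, Nsdhl at 1.001 in place of 1.03, Fdps at 1.37 in place of 1.43, Stard4 at 0.66 in place of 0.70 and Hsd17b7 at -0.97 in place of -0.82. Others were smaller, among them Fasn (0.72 in place of 2.57), Acly (0.69 in place of 2.06), Sc5d (0.32 in place of 1.03) and Fads1 (0.34 in place of 0.83). In TNFR12_KO against Sham, calls of the sterol arm fell from 11 to 5 without Sham library b and to 6 and 7 without TNFR12_KO replicates 2 and 3. Those of the fatty acid arm fell from 7 to 4 without Sham library a or either of those replicates.

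Neighbouring genes of the pathway were read from 5 further lists, beside the shares of all tested genes that fell and rose: 41.9% and 16.4% in WT against Sham, 21.9% and 29.8% in RIPK1_D138N against WT, and 17.5% and 29.6% in TNFR12_KO against WT. Of 9 genes of SREBP processing, 4 fell and 2 rose in WT against Sham, 4 rose and 2 fell in RIPK1_D138N against WT, and 4 rose and 0 fell in TNFR12_KO against WT. The falls in WT and in RIPK1_D138N were near the share of all genes. Rnf139, an endoplasmic reticulum ubiquitin ligase, stood at -1.17 in WT against Sham and at 0.88 in TNFR12_KO against WT, both called. Of 11 further tested sterol and isoprenoid genes, 6 fell and 1 rose in WT against Sham. In the mutants 5 rose and 1 fell in RIPK1_D138N and 6 rose and 1 fell in TNFR12_KO. Acat1, the mitochondrial acetoacetyl-CoA thiolase, fell from 175.4 to 20.3 FPKM from Sham to WT (-3.03) and stood at 130.6 and 106.5 in the mutants (2.63 and 2.33). Tm7sf2, a sterol reductase, stood at 1.94 in RIPK1_D138N against WT and was called. The falls of these lists in WT depended on scaling in part, and the median of the sterol and isoprenoid list was -0.68 as deposited and 0.26 after quantile normalization.

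Of 19 tested genes further along fatty acid and triglyceride synthesis, 10 fell and 2 rose in WT against Sham, and 11 rose in each mutant against WT. The falls and rises in WT were not far from the shares of all genes given above. Those that fell in the mutants were Lpin2, Cidec, Plin2 and Mlxip in RIPK1_D138N, and Lpin2 and Mlxip in TNFR12_KO. Without RIPK1_D138N replicates 2 and 3, Cidec stood at -0.73 in place of -1.98 and Plin2 at -0.90 in place of -1.20. Lpin2 then stood at -1.59 in place of -1.31 and Mlxip at -0.98 in place of -0.64. Cidec read 5.13 FPKM in replicate 1 against 0.894 and 0.450 in replicates 2 and 3. Plin2 and Cidec encode proteins of the lipid droplet surface. Agpat2, which makes phosphatidic acid, fell to 20 FPKM in WT from 120.8 in Sham, and rose against WT to 85.9 and 75.99 in the 2 mutants. Lpin1, the phosphatidate phosphatase that follows it, rose by 2.27 in RIPK1_D138N. Of 7 tested liver X receptor genes and targets, 5 fell and 0 rose in WT, though 2 rose and 3 fell with either rescaling. In the mutants 4 rose and 1, Abca1, fell in RIPK1_D138N, and 4 rose and 0 fell in TNFR12_KO. Abcg5, a sterol exporter into bile, stood at 2.06 and 2.22, and Nr1h3, which encodes LXR alpha, at 1.64 and 1.55.

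Of 7 tested genes of insulin input, 2 rose and 1 fell in each mutant against WT, a count close to the 29.8% and 29.6% of all tested genes that rose. Ppp1r3b, a glycogen-targeting phosphatase subunit, fell in WT against Sham (-1.29) and rose in both mutants against WT (1.52 and 1.26). Igfbp1, which insulin represses, went from 194.8 FPKM in Sham to 659.6 in WT and stood at 236.3 and 251.5 in the mutants (2.02, -1.44 and -1.36, all called). Without RIPK1_D138N replicates 2 and 3, 2 genes of this list rose and 0 fell against WT, although Igfbp1 stood at -1.25 (adjusted p = 0.183), close to its value with all replicates. The same change gave 0 higher and 2 lower in SREBP processing and 3 higher and 0 lower in each of the sterol and isoprenoid and the liver X receptor lists, and 8 higher and 2 lower in that of fatty acid and triglyceride genes.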

How the data were processed

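Total RNA of mouse liver was measured in 12 libraries. The authors deposited FPKM values. Cufflinks 2.2.1, Cuffdiff, STAR 2.5.4a and the build mm10 are named by the submitters' processing notes. The gene annotation and strand setting are not given in the sources used here. FPKM gives no count, so a count test was not used; steps between low values put the depth of 2 Sham libraries at 0.607 of RIPK1_D138N replicate 3 and that of the others at 1 to 2.17, and these ratios may be off by a small whole factor. Zeros can be failed estimates.

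The 38 genes, their arms and the further lists were chosen with earlier results of these data known. Limma 3.58.1 in R 4.3.3 was fitted to log2(FPKM + 1), with a mean-variance trend and 4 group means over 12 libraries, on 11728 genes that reached 1 FPKM in 3 libraries or more, with Benjamini-Hochberg adjustment over all of them. The procedure was tested on simulated data. Differences on this scale understate changes of low genes. Gene coordinates came from GENCODE M21 and promoters from RefSeq (GRCm38.p6). All 38 genes could be named, with the value of every library for regulators and for the largest differences among called genes, and of each further list the 2 called genes with the largest differences, except a few that are not reported here; Plin2, Cidec and other genes behind a count of 5 or fewer were named after their values were seen. Alternatives were other pseudocounts, filters and scalings, 2 groups alone, and left-out libraries.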

Additional observations from a re-analysis of the deposited data

How the results depend on the processing

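Over the 37 tested genes in 6 comparisons (222 combinations, with the most damaging left-out library of each), 1784 of 1955 alternative values stayed on their side of the threshold with any call in the same direction. Of the others 129 lost the call, 36 gained one, and 6 reversed, all after quantile normalization: Insig2 (0.221), Cyp51 (0.082), Msmo1 (0.812), Elovl5 (0.293) and Dgat2 (0.143) in WT against Sham, and Elovl5 (-0.016) in TNFR12_KO against WT. Quantile normalization left 4 calls of the fatty acid arm in WT against Sham, put the sterol arm minus the fatty acid arm at -0.66 in RIPK1_D138N against WT, and at 0.064 between the mutants, where it was 0.031 with no filter. With no filter, TNFR12_KO had 7 calls of the fatty acid arm against WT, and 5 of the sterol and 3 of the fatty acid arm against Sham. Without RIPK1_D138N replicates 2 and 3, 7 calls of the fatty acid arm were left against WT and the arms differed by -0.33. Against Sham, 1 and 2 calls were left in the sterol and fatty acid arms and the arms differed by 0.14, and against TNFR12_KO they differed by 0.35. The cause of these changes was not tested. Leaving out each library of the compared groups in turn gave 4 to 7 calls of the sterol arm, 7 to 8 of the fatty acid arm and an arm difference of 0.22 to 0.56 in WT against Sham. The ranges were 12 to 14, 11 to 13 and -1.30 to -0.80 in RIPK1_D138N against WT, and 10 to 16, 7 to 13 and -0.96 to -0.62 in TNFR12_KO against WT. They were 0 to 0, 0 to 1 and -0.28 to 0.13 between the mutants, where the 1 call came without RIPK1_D138N replicate 1. They were 8 to 13, 6 to 12 and -0.53 to -0.12 in RIPK1_D138N against Sham, and 5 to 11, 4 to 7 and -0.43 to -0.09 in TNFR12_KO against Sham. With median-of-ratios scaling the split of all genes called was 2879 higher and 3505 lower in WT against Sham (1918 and 4913 as deposited), 3236 and 3056 in RIPK1_D138N against WT (3500 and 2570), 3073 and 2745 in TNFR12_KO against WT (3466 and 2054), 1300 and 1419 in RIPK1_D138N against Sham (881 and 2658), and 1237 and 1189 in TNFR12_KO against Sham (875 and 2127). Over all tested genes, same-numbered libraries of the mutants did not deviate together (r = -0.0975, -0.202 and 0.0574 for replicates 1 to 3). In the fatty acid and sterol arms, however, replicate 2 of RIPK1_D138N was the highest of its group in 16 of 16 and 17 of 21 genes. Replicate 2 of TNFR12_KO was highest in 13 of 16 and 18 of 21, against 39.6% and 42.9% of all tested genes. Replicate 1 was low in both mutants, as given above. Whether the numbers mark a shared effect on these genes was not tested. With the replicate number as a block, 0 genes of the sterol arm and 0 of the fatty acid arm were called between the mutants, and the arms differed by -0.01. No paired analysis was possible for the other comparisons because the numbers of the WT and Sham columns could not be matched to 1 sample each.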
